A study of Mus musculus with 12 samples.

Results

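The cardiac and vascular connexins are the gap junction proteins that couple heart muscle cells and cells of the vessel wall. Gja1, Gja3, Gja4, Gja5 and Gjc1 were found by matching the Ensembl identifiers of the count tables to mouse gene symbols, and all 5 were present among the 46983 genes counted. Their transcripts were measured in the left ventricle (LV) of 12 mice aged 12 weeks, by sequencing the 3′ ends of transcripts. The 4 groups of 3 mice were wild type (Wt) offspring of non-diabetic dams, Wt offspring of diabetic dams, Hif1a+/- offspring of non-diabetic dams and Hif1a+/- offspring of diabetic dams. Diabetes had been induced in FVB females with streptozotocin before mating with Hif1a+/- males, so the offspring were exposed in utero and were not themselves treated. Hif1a+/- mice carry 1 deleted copy of Hif1a, which encodes the oxygen-labile subunit of the hypoxia-inducible factor HIF-1, in every cell of the body. The mice of a group came from several litters. The comparisons asked how maternal diabetes and the genotype, alone and together, went with connexin transcript levels in the adult LV.

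A connexin spans the cell membrane, assembles with its neighbours into a hemichannel, and docks with a hemichannel of the next cell to form a gap junction channel through which ions and small molecules pass. In working ventricular muscle these channels sit mainly at the intercalated disc, the end-to-end contact of cardiomyocytes, and carry the electrical impulse from cell to cell. Gja1 encodes Cx43, the main connexin of ventricular myocytes, which is also made by fibroblasts and vascular cells. Gja5 encodes Cx40, found in the atria, the His-Purkinje system and arterial endothelium. Gjc1 encodes Cx45, found in the conduction system and in the early heart tube. Gja4 encodes Cx37 of arterial endothelium, and Gja3 encodes Cx46, best known from the lens.

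The genes lie on 5 chromosomes of GRCm38. Gja1 (ENSMUSG00000050953) is at chr10:56377330-56402513 on the plus strand, Gja5 (ENSMUSG00000057123) at chr3:96904693-97077416 on the plus strand, and Gjc1 (ENSMUSG00000034520) at chr11:102799579-102819700 on the minus strand. Gja4 (ENSMUSG00000050234) is at chr4:127311421-127314039 and Gja3 (ENSMUSG00000048582) at chr14:57034460-57058100, both on the minus strand. Gja5 shares 165 exonic bases with Gpr89 on the opposite strand. The strand setting of the counting is not given in the sources used here, so reads from those bases cannot be assigned to one of the genes with certainty. The other 4 connexins share no exonic base with another annotated gene.

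The 250 bases before the RefSeq start of Gja1 and of Gja5 are shown because these were the connexins with the lowest levels after diabetic pregnancy relative to the non-diabetic groups, and because HIF-1 is the factor whose gene was deleted. The sequences are from RefSeq on GRCm38.p6, plus strand, 5′ to 3′, at chr10:56377050-56377299 and chr3:97032152-97032401. No base of either lies in an annotated exon, and the RefSeq start of Gja5 used here lies inside the longer GENCODE gene. Capitals mark matches, on either strand, to the motifs searched.
Gja1: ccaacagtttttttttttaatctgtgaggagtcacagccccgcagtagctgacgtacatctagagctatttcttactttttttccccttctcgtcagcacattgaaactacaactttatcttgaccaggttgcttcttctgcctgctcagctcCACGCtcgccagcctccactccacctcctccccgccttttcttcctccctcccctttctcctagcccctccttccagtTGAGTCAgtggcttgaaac
Gja5: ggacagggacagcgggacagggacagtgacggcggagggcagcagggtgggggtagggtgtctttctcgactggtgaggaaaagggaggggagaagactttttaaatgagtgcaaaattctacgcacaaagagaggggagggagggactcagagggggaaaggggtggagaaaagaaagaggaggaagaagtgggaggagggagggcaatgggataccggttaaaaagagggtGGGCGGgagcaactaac

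In the Gja1 sequence the first run of capitals matches GCGTG, a form of the HIF-1 core motif, on the minus strand and ends 92 bases before the start. The second matches the AP-1 motif TGANTCA, 12 bases before the start. The capitals in the Gja5 sequence match the Sp1 motif GGGCGG, 11 bases before the start. Of 32851 mouse promoter windows of the same length, 28.2% held GCGTG, 6.75% TGANTCA and 32.7% GGGCGG. The canonical HIF-1 core ACGTG, present in 16.6% of windows, and the T-box motif TCACACC, present in 3.33%, had no match in the windows searched, those of Gja1, Gja3, Gja4 and Gja5. Gja3 had 1 and 4 matches to GCGTG in its pair of windows, Gja4 had 1 to GGGCGG, and Gjc1 was not searched. A match describes the letters only.

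The libraries held between 16132442 and 39812939 counts, and all 5 connexins passed the filter on low counts. Gja1 had between 10030 and 24616 reads per sample, Gjc1 between 291 and 683, Gja4 between 244 and 472, Gja3 between 171 and 503, and Gja5 between 122 and 337. Counting error alone was therefore 0.637% to 0.999% of the Gja1 value, against 5.45% to 9.05% of the Gja5 value. Of the 12 ventricular myocyte markers, all were detected and their summed level was between 111636 and 125415 CPM (the reads of a gene relative to the TMM-scaled total of its library). Summed Y-linked counts exceeded Xist in 11 samples and not in Hif1a+/- diabetic replicate 72, whereas the labels give all mice as female and the study's text as male. Red cell transcripts reached 7323 CPM in Wt non-diabetic replicate 25 and 185 to 1771 CPM in the others.

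Hif1a itself was at 55.7, 57.0 and 71.8 CPM in non-diabetic Wt, 47.9, 59.3 and 58.6 CPM in diabetic Wt, 89.4, 78.8 and 88.9 CPM in non-diabetic Hif1a+/- and 70.5, 64.8 and 81.5 CPM in diabetic Hif1a+/-. The Hif1a+/- samples were thus not lower, and the mean genotype difference was 0.43 on the log2 scale (SE 0.09, adjusted p = 0.596, edgeR). These counts come from the 3′ end, and no source used here gives the deleted part of the gene, so they check neither genotype nor protein.

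Gja1 was by far the most abundant connexin, with a mean over the 12 samples of 696 CPM. It made up between 89.4% and 94.8% of the summed CPM of the 5 connexins in a sample. Gjc1 followed at 19.7 CPM, Gja4 at 15.1, Gja3 at 12.0 and Gja5 at 8.52 CPM. Each step in this order held within all 12 samples, except that Gja4 was above Gja3 in 11. Between samples the ranges of neighbours below Gja1 overlapped. Per kb of exon, the scale on which levels of different genes were compared, the order was Gja1 at 67.9, Gja4 at 8.96, Gja3 at 4.04, Gjc1 at 3.94 and Gja5 at 1.48 CPM per kb. Gja3 and Gjc1 could not be ranked on that scale, since Gja3 was higher in only 8 of 12 samples. Reads from 3′ ends do not grow with transcript length in the way reads along whole transcripts do, so both scales are shown.

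**Figure D1:**
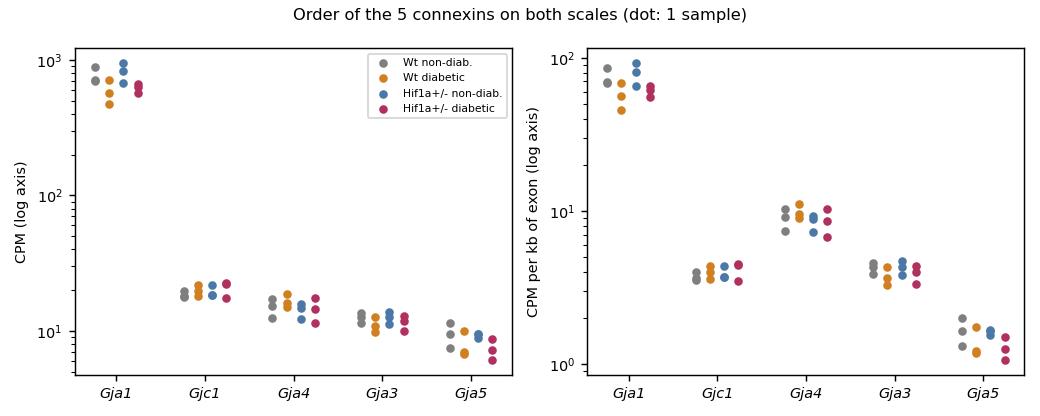
Level of each connexin in the 12 samples, in CPM (left) and CPM per kb of exon (right), both on log axes, with 1 dot per sample coloured by group. Gja1 stood above the other 4 on both scales, with means of 696 CPM and 67.9 CPM per kb, while Gjc1 was above Gja4 in CPM (19.7 against 15.1) and below it per kb (3.94 against 8.96).

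Gja1, the ventricular Cx43 gene, was lower in the LVs of offspring from diabetic pregnancy in both genotypes, but the difference did not pass the adjusted threshold of 0.1 in the edgeR quasi-likelihood test. In non-diabetic Wt it was at 709, 882 and 701 CPM. In diabetic Wt it was at 706, 469 and 573 CPM. Replicates 7 and 80 lay below every non-diabetic Wt sample, while replicate 50 fell among them, so the groups overlapped.

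In non-diabetic Hif1a+/- LVs Gja1 was at 669, 830 and 949 CPM. In diabetic Hif1a+/- LVs it was at 632, 569 and 667 CPM. The groups did not overlap, although the highest diabetic and the lowest non-diabetic sample were close, at 667 and 669 CPM. Over all 14706 genes tested, 13.2% were lower without overlap in this comparison, so the separation alone was common. Against non-diabetic Wt, the 3 diabetic Hif1a+/- samples were also all lower, as were 7.11% of genes.

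**Figure D2:**
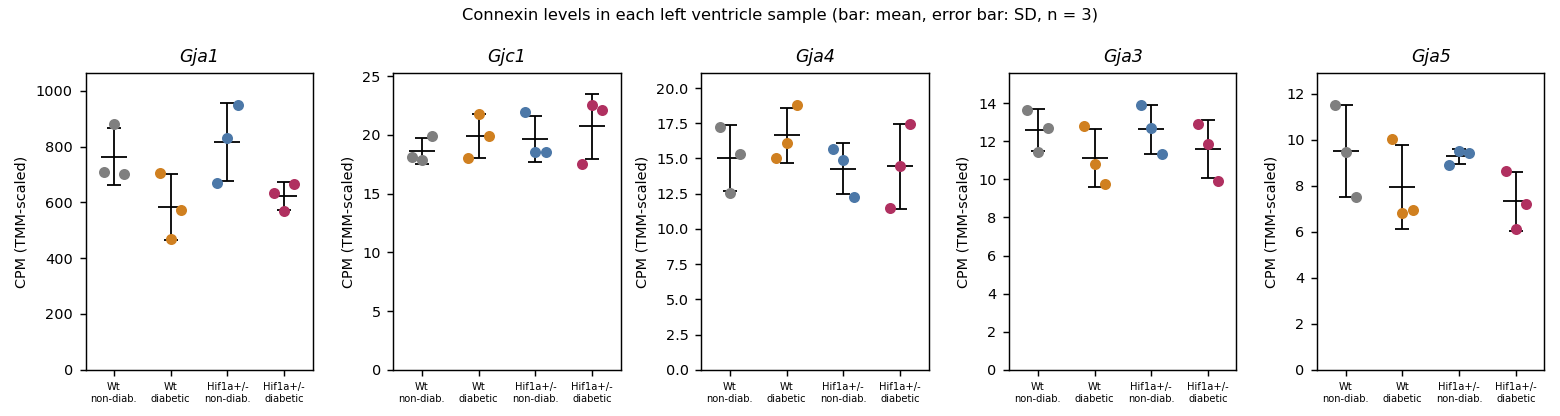
CPM of the 5 connexins in each LV sample, by group, on linear axes from 0. Dots are samples, the wide dash is the mean and the bar the SD of 3 samples. Gja1 means were 764 and 816 CPM in the non-diabetic Wt and Hif1a+/- groups and 583 and 623 CPM in the diabetic ones, whereas the groups overlapped widely for Gjc1, Gja4 and Gja3.

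The group means of Gja1 were 764 ± 102 CPM in non-diabetic Wt, 583 ± 119 in diabetic Wt, 816 ± 140 in non-diabetic Hif1a+/- and 623 ± 49.6 in diabetic Hif1a+/- (SD, n = 3 each). In Wt the log2 fold change with maternal diabetes was -0.39 (SE 0.16, 95% interval -0.73 to -0.05, edgeR adjusted p = 1.00). In Hif1a+/- it was -0.39 (SE 0.16, 95% interval -0.73 to -0.05, edgeR adjusted p = 0.371). With 1 sample left out, the Wt estimate ranged from -0.55 (without diabetic replicate 50) to -0.25 (without diabetic replicate 7), and the Hif1a+/- estimate from -0.51 (without non-diabetic replicate 14) to -0.26 (without non-diabetic replicate 44). Without diabetic replicate 72, where summed Y-linked counts did not exceed Xist, the Hif1a+/- estimate was -0.32. The Wt and Hif1a+/- comparisons share no sample, but the litter of each mouse is not given, so littermates of both genotypes could be among them. The fit treated every mouse as independent. The interaction, the difference between them, was 0.0008 with a 95% interval from -0.48 to 0.48, which leaves room for unequal effects of moderate size.

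Averaged over both genotypes, Gja1 differed by -23.7% after diabetic pregnancy, a log2 fold change of -0.39 (SE 0.11, 95% interval -0.63 to -0.15, edgeR adjusted p = 0.283). All 6 diabetic samples were below the non-diabetic median of 769.6 CPM, and 5 of 6 were below every non-diabetic sample. The share of all genes with such a split was not computed, so how common it is remains unknown. By p value Gja1 ranked 180 of 14706 genes. DESeq2, the tool of the study's methods, gave the same fold change of -0.39 with an adjusted p of 0.0766, and called 1.46% of the genes it tested in this comparison. With any 1 sample left out the edgeR estimate stayed between -0.47 and -0.32, and the adjusted p between 0.139 and 0.645. Without replicate 72 it was -0.35, and without replicate 25 it was -0.41.

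**Figure D3:**
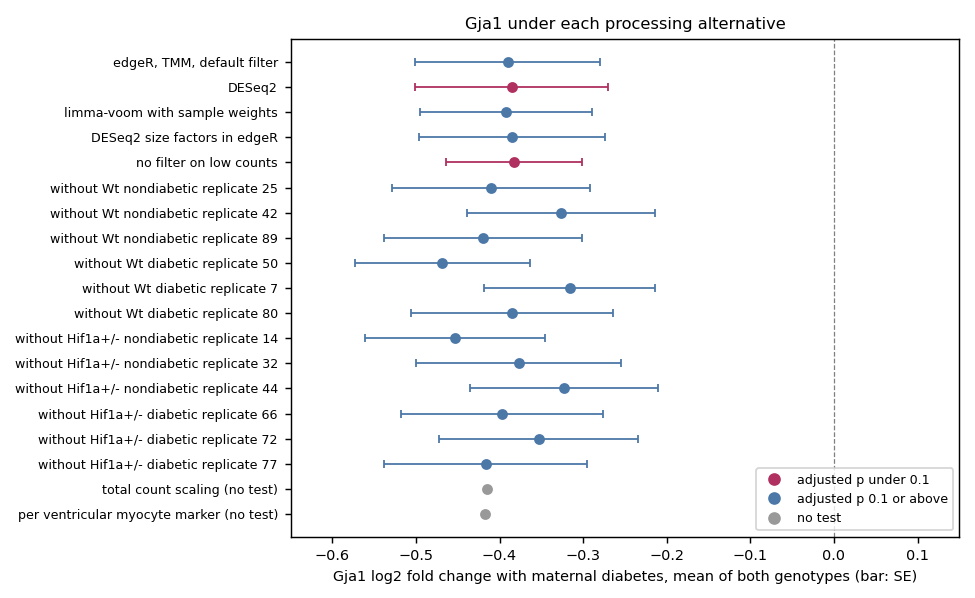
Log2 fold change of Gja1 with maternal diabetes, averaged over both genotypes, under the main edgeR fit and each alternative, with SE bars where a test was run. Every estimate lay between -0.47 and -0.32. The adjusted p was under 0.1 with DESeq2 and with edgeR without a filter on low counts, and 0.1 or above in the other tests shown.

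In whole LV tissue, fewer cells of a type and less RNA per cell cannot be told apart. The ventricular myocyte markers, the transcripts of the main Cx43-bearing cell, had a median log2 fold change of 0.03 with maternal diabetes over both genotypes, close to the median of 0.00 over all genes, with 7 of 12 higher and none past the adjusted threshold. Expressed per 1000 reads of these 12 markers, Gja1 was at 6.04, 7.35 and 6.08 in non-diabetic Wt and 5.63, 4.04 and 4.68 in diabetic Wt. It was at 5.997, 6.87 and 7.80 in non-diabetic Hif1a+/- and 5.09, 5.05 and 5.60 in diabetic Hif1a+/-. On this ratio, chosen after the data had been seen, all 6 diabetic samples were below all 6 non-diabetic ones. The nearest values were 5.63 and 5.997. In CPM the same samples overlapped, with diabetic samples up to 706 CPM and non-diabetic ones from 669 CPM. The mean log2 difference of the ratio was -0.42, with no test, and the share of all genes separated in this way was not computed.

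For genotype, every interval of Gja1 included 0. Hif1a+/- minus Wt was 0.10 on the log2 scale without maternal diabetes (95% interval -0.24 to 0.43) and 0.10 after diabetic pregnancy (95% interval -0.24 to 0.43). The mean over both pregnancies was 0.10 (SE 0.11, edgeR adjusted p = 1.00). Diabetic Hif1a+/- against non-diabetic Wt, which carries both changes, gave -0.29 (SE 0.16, 95% interval -0.63 to 0.04, edgeR adjusted p = 0.590). This comparison shares its control samples with that of diabetic Wt.

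Gja5, the Cx40 gene of arterial endothelium and the Purkinje system, had the next lowest estimate after diabetic pregnancy. It was at 11.5, 9.46 and 7.52 CPM in non-diabetic Wt and at 10.1, 6.81 and 6.97 CPM in diabetic Wt. The Wt groups overlapped, with replicate 50 again the highest diabetic sample. In Hif1a+/- it was at 8.92, 9.52 and 9.45 CPM without and 8.66, 6.12 and 7.20 CPM with maternal diabetes, so all 3 diabetic samples were lower, as were those of 13.2% of all genes.

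The log2 fold change of Gja5 was -0.25 in Wt (SE 0.19, 95% interval -0.66 to 0.16) and -0.34 in Hif1a+/- (SE 0.19, 95% interval -0.75 to 0.08, edgeR adjusted p = 0.483). Over both genotypes it was -0.29 (SE 0.14, edgeR adjusted p = 0.439). Single libraries weighed on these values. In Wt the estimate was -0.093 without non-diabetic replicate 25 and -0.45 without diabetic replicate 50, the ends of its range with 1 sample left out. Without replicate 72 the Hif1a+/- estimate was -0.21 and the mean -0.23, and without replicate 25 the mean was -0.21. The interaction of Gja5 was -0.08 with a 95% interval from -0.67 to 0.50.

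Gjc1, the Cx45 gene, was at 18.1, 17.8 and 19.9 CPM in non-diabetic Wt, at 18.04, 21.8 and 19.9 CPM in diabetic Wt, at 21.9, 18.5 and 18.5 CPM in non-diabetic Hif1a+/- and at 17.5, 22.5 and 22.1 CPM in diabetic Hif1a+/-. All 4 ranges overlapped. The log2 fold change with maternal diabetes over both genotypes was 0.08 (SE 0.09, 95% interval -0.10 to 0.27, edgeR adjusted p = 0.712). A difference of the size estimated for Gja1, in the same direction, lies outside this interval.

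Gja4, the Cx37 gene of arterial endothelium, was at 17.2, 12.5 and 15.3 CPM in non-diabetic Wt, at 15.04, 16.1 and 18.8 CPM in diabetic Wt, at 15.7, 14.9 and 12.3 CPM in non-diabetic Hif1a+/- and at 11.5, 14.4 and 17.4 CPM in diabetic Hif1a+/-. The groups overlapped in each comparison. With maternal diabetes over both genotypes the log2 fold change was 0.08 (SE 0.12, 95% interval -0.18 to 0.33, edgeR adjusted p = 0.815), and 0.14 without replicate 25. The estimate with the largest size for this gene was that of Hif1a+/- against Wt after diabetic pregnancy, at -0.21 (SE 0.17, 95% interval -0.56 to 0.15), and it ranged from -0.36 to -0.058 with 1 sample left out.

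Gja3, the Cx46 gene, was at 13.6, 11.5 and 12.7 CPM in non-diabetic Wt, at 12.8, 10.8 and 9.77 CPM in diabetic Wt, at 13.9, 12.7 and 11.3 CPM in non-diabetic Hif1a+/- and at 12.9, 11.9 and 9.94 CPM in diabetic Hif1a+/-. It was detected in every sample. Per kb of exon its level was close to that of Gjc1, whereas in CPM its highest sample, at 13.9, was below the lowest of Gjc1, at 17.5. With maternal diabetes over both genotypes its log2 fold change was -0.15 (SE 0.10, 95% interval -0.36 to 0.06, edgeR adjusted p = 0.563), and all groups overlapped.

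**Figure D4:**
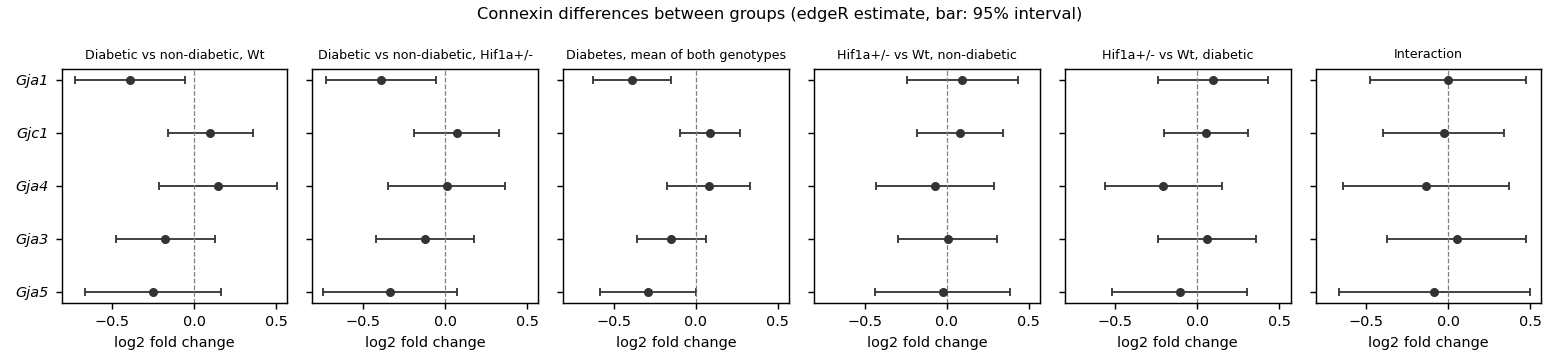
Log2 fold changes of the 5 connexins in 6 comparisons (edgeR estimates, bars are 95% intervals, dashed line at 0). Averaged over both genotypes, the interval of Gja1 ran from -0.63 to -0.15 and that of Gja5 from -0.58 to -0.0017, while all intervals for genotype and interaction included 0.

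None of the 5 connexins passed the adjusted threshold in any of the 8 edgeR comparisons, in which 0.0% of genes passed. At an unadjusted p under 0.05, 2 of 5 were lower in the mean diabetes comparison, beside 5.82% of all genes. In Hif1a+/- alone 1 of 5 was lower, beside 6.28%, and in Wt alone 1 of 5, beside 1.61%. With DESeq2, 203 genes passed in the mean diabetes comparison, Gja1 being the only connexin among them. With limma-voom, which called 0.265% of genes there, no connexin passed. In Hif1a+/- alone, Gja1 passed with limma-voom (-0.43, adjusted p = 0.0882), which called 6.37% of genes, and no connexin passed with DESeq2, which called 1.44%. Gja1 also passed with edgeR when no filter on low counts was used, in Hif1a+/- alone and in the mean comparison, in each of which 2.19% of genes were called.

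Most of the other connexin genes had few or no reads in the LV. Gja10, Gjd2 and Gje1 had no read in any sample, 9 had between 1 and 10 reads in the 12 samples together, and Gja6 and Gjc3 had 22 and 64. None of these passed the filter on low counts. A count of 0 allows up to 3 reads, or 0.0754 to 0.186 CPM depending on the library, as counting error only.

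The pannexins form related channels that open to the outside of the cell and do not make gap junctions. Panx1, the widely expressed member, was at 1.81 ± 0.38 CPM in non-diabetic and 2.95 ± 0.53 CPM in diabetic Hif1a+/- (SD, n = 3), a log2 fold change of 0.70 (SE 0.23, edgeR adjusted p = 0.299). In Wt the means were 2.54 ± 0.52 and 2.27 ± 0.32 CPM, a log2 fold change of -0.17. The interaction of Panx1 was 0.87 (SE 0.32, edgeR adjusted p = 0.998). Panx2, a member best known from the brain, had a log2 fold change of 0.01 in Hif1a+/-, with a 95% interval from -0.64 to 0.66, and Panx3 had no read.

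Genes of the intercalated disc, where Cx43 channels are anchored, had mostly negative estimates after diabetic pregnancy in Hif1a+/- and over both genotypes, without any that passed the edgeR threshold. In Hif1a+/- 20 of 24 had a negative log2 fold change, with a median of -0.22 against -0.01 over all genes, and 7 were lower and 1 higher at an unadjusted p under 0.05, where 6.28% of all genes were lower. In Wt 19 of 24 were negative, with a median of -0.05. None was lower there at an unadjusted p under 0.05, where 1.61% of all genes were lower. For the interaction none of the 24 had an unadjusted p under 0.05 (edgeR). Over both genotypes 19 of 24 were negative, with a median of -0.14. Besides Cdh2 and Pkp2, described next, the 7 were Dsp at -0.27 and Dsc2 at -0.33, both desmosomal, Ctnnb1 at -0.23, which encodes beta-catenin, Lmo7 at -0.33, and Tjp1 at -0.29, which encodes ZO-1, a scaffold that binds the tail of Cx43. The higher gene was Cav3 at 0.28, which encodes the muscle caveolin. These 6 were named after their values were seen.

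Cdh2, which encodes N-cadherin of the adherens junction, was at 299 ± 12.3 CPM in non-diabetic and 231 ± 19.1 CPM in diabetic Hif1a+/-, with no overlap (log2 fold change -0.37, SE 0.11, edgeR adjusted p = 0.298). Of all genes tested, 13.2% were lower without overlap in that comparison. In Wt the Cdh2 means were 291 ± 44.2 and 256 ± 27.6 CPM. Pkp2, which encodes the desmosomal plakophilin-2, was at 246 ± 7.90 and 203 ± 6.14 CPM in Hif1a+/- (log2 fold change -0.28, SE 0.08, edgeR adjusted p = 0.266), and at 234 ± 16.4 and 219 ± 7.85 CPM in Wt. DESeq2 called Pkp2 lower, as the only 1 of 24 disc genes, in Hif1a+/- and over both genotypes. Of all genes it called 1.44% and 1.46% in these comparisons. The summed level of the disc genes ranged from 9244 to 10423 CPM in diabetic and from 10364 to 10847 CPM in non-diabetic Hif1a+/-, so the sums overlapped. In Wt the mean sum was 10246 CPM with and 10072 CPM without maternal diabetes.

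Of the transcription factors known to act on connexin genes in the heart, 17 of 21 tested had negative estimates in Hif1a+/- after diabetic pregnancy. Their median was -0.16, against -0.01 over all genes. Beside 6.28% of all genes, 1 of the 21 was lower at an unadjusted p under 0.05 (edgeR). That gene was Gata4, a zinc-finger factor of cardiac muscle, at 185 ± 33.3 CPM without and 141 ± 9.29 CPM with maternal diabetes in Hif1a+/- (log2 fold change -0.39, SE 0.13, edgeR adjusted p = 0.300). In Wt it was at 169 ± 20.8 and 149 ± 11.7 CPM. Hey2, a Notch effector of compact ventricular muscle, was at 3.65 ± 0.79 and 4.79 ± 0.77 CPM in Hif1a+/- and at 3.41 ± 0.51 and 4.63 ± 0.64 CPM in Wt (mean log2 fold change 0.43, SE 0.14, edgeR adjusted p = 0.325).

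The kinases, phosphatases and turnover factors of Cx43 showed no common direction. In Hif1a+/- 10 of 21 were higher and 11 lower, with a median of 0.00 and a range from -0.29 to 0.22. The lowest was Wwp1, a ubiquitin ligase, at -0.29 (SE 0.11, edgeR adjusted p = 0.36), and the highest Akt1, a serine/threonine kinase, at 0.22 (SE 0.09, edgeR adjusted p = 0.371).

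**Figure D5:**
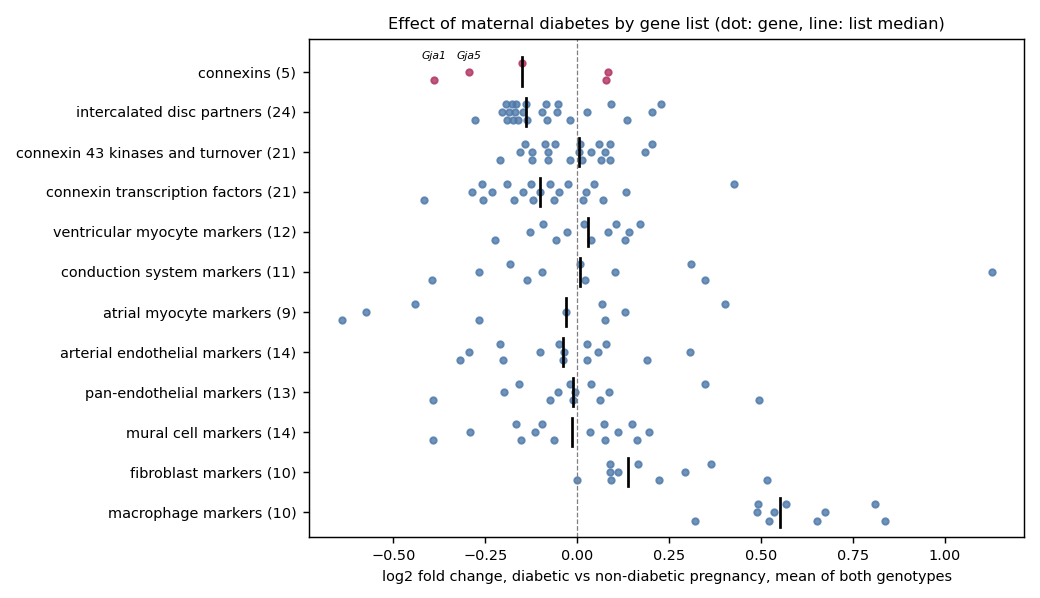
Log2 fold change with maternal diabetes, averaged over both genotypes, for each gene of 12 lists (dots, number of genes in brackets) with the list medians (black lines). Medians were -0.15 for the connexins, -0.14 for disc genes and 0.55 for macrophage markers, none of whose genes passed the edgeR threshold.

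Markers of the cell types that carry the vascular and conduction connexins were compared in the same way. Arterial endothelial markers, a list that holds Gja4 and Gja5, had a median of -0.12 in Hif1a+/- with 9 of 14 lower and 5 higher, and their summed level was 493 to 523 CPM in diabetic and 509 to 531 CPM in non-diabetic samples. Pan-endothelial markers had a median of -0.05 with 4 of 13 higher. Among them Vwf, the von Willebrand factor gene, was at 0.81 (SE 0.21, edgeR adjusted p = 0.228), which DESeq2 called higher, and Erg, an endothelial transcription factor, at -0.31 (SE 0.09, edgeR adjusted p = 0.275). Mural cell markers had a median of -0.12, with 9 of 14 lower and 5 higher. The summed mural level was 1659 to 1740 CPM in diabetic and 1847 to 1928 CPM in non-diabetic Hif1a+/-, without overlap. Of single genes, 13.2% were lower without overlap there, and the share for sums was not computed. In Wt the mural sums overlapped, at 1697 to 1955 CPM with and 1675 to 1986 CPM without maternal diabetes. In Hif1a+/- Efnb2, an arterial ligand, was at -0.19 (SE 0.12) and Myh11, a smooth muscle myosin, at -0.78 (SE 0.24, edgeR adjusted p = 0.298), which DESeq2 called lower. Conduction system markers had a median of -0.11, and their sum overlapped between all groups, at 73.6 to 133.6 CPM. Atrial myocyte markers had a median of -0.02.

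Macrophage and fibroblast markers had positive estimates in Hif1a+/-. There all 10 macrophage markers were higher after diabetic pregnancy, with a median of 0.91, and their summed level was 551 to 818 CPM against 275 to 400 CPM without. DESeq2, which called 1.44% of all genes there, called 5 of them higher (C1qa, C1qb, C1qc, Lyz2 and Mrc1) and edgeR none. The complement gene C1qb was at 33.7 ± 5.81 and 80.6 ± 27.2 CPM. In Wt all 10 macrophage markers were also higher, with a median of 0.27. Their sums there overlapped, at 373 to 623 CPM with and 363 to 508 CPM without maternal diabetes. All 10 fibroblast markers were higher in Hif1a+/- with a median of 0.40, and Dpt, a matrix protein gene, was at 105 ± 7.61 and 156 ± 21.3 CPM. In Wt 6 of the 10 fibroblast markers were higher and 4 lower, with a median of 0.01. The part of the mural, macrophage and fibroblast values in the connexin values was not tested.

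The genes whose levels followed each connexin most closely over the 12 samples were found by Pearson's r of log2(CPM + 1) among 14705 genes, as a description of samples that share groups and depth. For Gja1 they were Phf23 (r = 0.909), Dtx3l (0.909), Gata4 (0.890), Fbxw7 (0.885) and Manba (0.881). For Gja5 they were Xpo7 (0.962), Vps54 (0.961), Dip2c (0.954), Rabgap1l (0.947) and Phactr2 (0.934). Taken as deviations from the group means, the r with Gja1 was 0.934 for Manba, 0.892 for Phf23, 0.863 for Gata4, 0.859 for Fbxw7 and 0.801 for Dtx3l. By that measure Manba ranked 6, Gata4 37 and Dtx3l 124 among the 14705 genes. Xpo7 ranked 1 for Gja5, with an r of 0.982.

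For Gjc1 the closest genes were Zfp61 (r = 0.910), Grhl2 (0.898), Tmem88 (0.888), Myo5a (0.874) and Kdsr (0.862). For Gja4 they were Mylip (0.919), Cyb5r3 (0.835), Ly6c1 (0.828), Taf8 (0.811) and Podn (0.809). For Gja3 they were Slc25a40 (0.896), Grk5 (0.860), Oxsm (0.859), Gm12295 (0.858) and Zfp457 (0.856). No gene was on more than 1 of these lists. Among the connexins themselves, Gja1 and Gja5 had an r of 0.67 (0.52 as deviations from group means), and Gja5 and Gjc1 one of -0.76 (-0.75).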

How the data were processed

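RNA from 12 LVs was sequenced as 3′-seq libraries. The authors trimmed the reads, discarded those of ribosomal or mitochondrial origin, and mapped what remained to GRCm38 using STAR (2.5.2b), with HTSeq for counting. The deposited counts are whole numbers without normalization; 5 tally lines per file were left out, and the authors' normalized files were not used. Multimapped reads, 12.37% to 17.02% in a sample, were not counted.

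Symbols and coordinates came from GENCODE M21 (46488 of 46983 identifiers matched). Groups came from the sample titles, and animal numbers name the replicates. Counts were tested with edgeR (4.0.16, R 4.3.3) by the quasi-likelihood F test with TMM scaling, the default filter by group (14706 genes kept), 1 mean per group over 12 samples and Benjamini-Hochberg adjustment over all genes, with a threshold of 0.1. The biological coefficient of variation was 13.7%, and replicates differed beyond sampling noise in every pair. Intervals use the residual and prior degrees of freedom of the fit. Alternatives were DESeq2 (1.42.0), limma-voom with sample weights (limma 3.58.1), DESeq2 size factors, no filter, only the 2 groups compared, and leaving out each sample. Total-count scaling and the ratio to myocyte markers were chosen after seeing the data. The scripts were tested on simulated data.

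The connexins and the gene lists were chosen with earlier results of these data known. The text names the 5 connexins, other connexins and pannexins with a mean of at least 1 CPM, Hif1a, up to 2 genes per list with the smallest p in Hif1a+/- after diabetic against non-diabetic pregnancy, and the 5 genes closest to each connexin by Pearson's r. Connexins at low counts were named outside that rule, after their values were seen.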

Additional observations from a re-analysis of the deposited data

How the results depend on the processing

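The lower Gja1 level with maternal diabetes kept its direction in every alternative run, in Wt, in Hif1a+/- and on average, while its side of the threshold depended on the test. On average it passed with DESeq2 (-0.39) and without a filter on low counts (-0.38), and in Hif1a+/- with limma-voom (-0.43) and without a filter (-0.38). Of 713 alternative values for the connexins, 659 counted as unchanged and 4 became significant. Another 50 changed sign, all for differences that passed neither there nor in the reported fit. For values with a test, unchanged means the same direction and side. Total-count scaling and the myocyte ratio had no test and so no side. Total-count values counted as unchanged when within the mean SD inside groups of the reported value. With limma-voom the sign changed for the Gja1 interaction (-0.084), for Gja3 in Hif1a+/- against Wt after diabetic pregnancy (-0.033), its interaction (-0.036) and its mean genotype difference (-0.015), for Gja4 in diabetic Hif1a+/- against non-diabetic Wt (0.021) and for the Gjc1 interaction (0.054). Leaving out 1 sample at a time, the genotype difference without maternal diabetes ranged from -0.032 to 0.22 for Gja1, -0.070 to 0.075 for Gja3, -0.19 to 0.028 for Gja4, -0.17 to 0.12 for Gja5 and -0.0075 to 0.13 for Gjc1. After diabetic pregnancy it ranged from -0.038 to 0.26 for Gja1, -0.029 to 0.17 for Gja3, -0.25 to 0.096 for Gja5 and -0.015 to 0.16 for Gjc1, and on average from -0.0098 to 0.089 for Gja3 and -0.14 to 0.037 for Gja5. The interaction ranged from -0.13 to 0.16 for Gja1, -0.039 to 0.16 for Gja3, -0.29 to 0.0092 for Gja4, -0.23 to 0.12 for Gja5 and -0.098 to 0.080 for Gjc1. Gja4 ranged from -0.15 to 0.16 with maternal diabetes in Hif1a+/-, from -0.0012 to 0.15 on average and from -0.22 to 0.088 in diabetic Hif1a+/- against non-diabetic Wt.

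The number of genes past the threshold, 0 in each of the 8 edgeR comparisons, moved most. With DESeq2 it was 4 and 203 for maternal diabetes in Wt and on average, 201 in Hif1a+/-, 1, 24 and 7 for genotype without, after and averaged over maternal diabetes, and 68 for diabetic Hif1a+/- against non-diabetic Wt. With limma-voom it was 937 in Hif1a+/-, 39 on average, 1 for genotype after diabetic pregnancy and 2 for diabetic Hif1a+/- against non-diabetic Wt. Without a filter it was, for maternal diabetes, 129 in Wt, 592 in Hif1a+/- and 593 on average, for genotype 33, 220 and 77, for the interaction 78, and 445 for diabetic Hif1a+/- against non-diabetic Wt. A fit of Hif1a+/- samples alone gave 101 for maternal diabetes. Leaving out 1 sample gave 0 to 38 genes in Hif1a+/- (38 without Hif1a+/- diabetic replicate 72), 0 to 21 on average (21 without Wt diabetic replicate 50), 0 to 2 for genotype after diabetic pregnancy and on average, and 0 to 1 for the interaction and for diabetic Hif1a+/- against non-diabetic Wt. The cause was not tested. No paired analysis was possible because the animal numbers that name the replicates are not shared between groups and the litters are not given. Depth limits Gja5 most, where counting error reached 9.05% of the value.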
